A study of Mus musculus with 24 samples.

Results

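The Rb pocket proteins are the products of Rb1, Rbl1 and Rbl2, also called RB, p107 and p130. The 3 genes were taken by symbol from a table of 25239 genes, and all 3 passed the filter that left 14104 genes for testing (TPM of at least 1 in at least 3 libraries). TPM, the transcript share of a library on a fixed scale, is corrected for gene length. Levels of different genes can thus be set side by side within a library, if the gene length used is right.

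Pocket proteins bind E2F transcription factors and hold back genes for entry into S phase. They do so in the low-phosphate form, and cyclin-dependent kinases (CDKs) release them. RB mainly binds the activating E2Fs, whereas p107 and p130 bind E2F4 and E2F5 and join the MuvB proteins in the DREAM complex, which also represses genes of mitosis. Loss of RB is a hallmark of small cell lung cancer (SCLC).

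RNA-seq was made from 24 libraries of 6 mouse SCLC cell lines, each started from a tumor of its own. All lines, controls included, came from mice that were flox/flox for Rb1 and for Rbl2 and carried Trp53 XTR/XTR and Rosa26 FlpO-ER alleles on a mixed B6J/129S4vJae background. Tumors were started with Ad:CMV-Cre, an adenovirus whose broadly active promoter drives Cre in infected cells, so Rb1, Rbl2 and Trp53 were targeted in the cells of every group, while Rbl1 was not. Tamoxifen's active form, 4-OHT, switches on FlpO-ER and turns Trp53 back on. Each line gave 4 libraries at 72 h, with vehicle (EtOH; Control), CsA (cyclosporin A, a cyclophilin inhibitor; Control + CsA), 4-OHT (Restored) or 4-OHT and CsA (Restored + CsA). Lines 4711-1, 4711-18 and 4716-11 are Type D, which die after p53 is restored, and lines 4711-11, 4716-10 and 4716-14 are Type V, which stay viable. There were thus 8 groups of 3 libraries. The main p-values use the spread between lines within groups, pooled over the 8 groups without a term for the line. The 4 libraries of a line thus count as separate, which can make p-values of type differences too small. For restoration, the main p-values do not use the pairing within lines. The types were named by the response of the lines to restoration, with 3 lines each.

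The libraries matched their labels for the restored gene. Trp53 was at 10.5 to 15.3 TPM in the 12 libraries without restoration and at 181 to 253 TPM in the 12 with it. Of 8 neuroendocrine markers, 4 reached 1 TPM in Type D and 5 in Type V, with summed levels of 5.50 to 27.1 and 16.2 to 85.7 TPM. The neuroendocrine markers Chga and Neurod1 stayed under 1 TPM in every library. Of 3 leukocyte markers, Ptprc and Cd3e stayed under 1 TPM in every library, and Cd68, a macrophage marker, was at 5.60 to 55.3 TPM in Type D and 6.86 to 31.3 TPM in Type V.

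In the mouse annotation (GENCODE M21, build GRCm38), Rb1 lies at chr14:73183673-73325822 on the minus strand, and its protein-coding transcript has 27 exons and 4656 bases. Lpar6, a lysophosphatidic acid receptor gene, lies within its span on the other strand, and Rcbtb2 overlaps its 3′ end on the other strand. Rbl1 lies at chr2:157145893-157204534 on the minus strand (22 exons, 4862 bases), and Rbl2 at chr8:91070057-91123844 on the plus strand (22 exons, 4925 bases), where Aktip overlaps it from the other strand. The libraries were stranded. The 3 genes share no stretch of 31 bases among their annotated transcripts, whereas Rb1 shares 353 such stretches with Lpar6 and 430 with Rcbtb2, and Rbl2 shares 635 with Aktip, all on the opposite strand. The study's methods do not settle which build or which exon model lies behind the TPM, and the sources used here do not give the floxed exons. A TPM per gene therefore cannot tell a transcript that lacks deleted exons from an intact one.

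Promoter letters were read for Rbl1 and Rbl2 (2 of 3 genes matched) from RefSeq windows of 300 bases in build GRCm38.p6. They are shown because Rbl1 is itself a textbook E2F target and Rbl2 is the member whose level differed between types. The capitals mark an E2F match in Rbl1, on the gene's strand and 17 to 11 bases before the start, and a CHR match in Rbl2, on the other strand and 201 to 196 bases before the start.
Rbl1, chr2:157204535-157204564, minus strand: caagaaggcgattTTCGCGCgctttgtcgc
Rbl2, chr8:91069844-91069873, plus strand: ggtctttttctcTTCAAAcgagccttctga
On both strands the E2F letters searched were TTCCCGC and also TTCGCGC and also TTGCCGC and also TTGGCGC. For CHR, the element bound by MuvB, they were TTTGAA as well as TTCGAA. For the CCAAT box they were CCAAT, and the p53 half-site was searched too. Among 32851 promoter windows, 9.57% held the E2F letters, 19.2% the CHR letters, 37.4% the CCAAT box and 8.36% the p53 half-site. The marked matches were the only ones in the Rbl1 and Rbl2 windows and did not overlap another match. Rbl1's window was richer in G and C (64.0%, with 29 CpG) than that of Rbl2 (50.7%, with 14 CpG).

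Rb1 RNA was read in every line although the gene had been targeted, and it rose about 3-fold to 4-fold when p53 was restored. The paper reports from immunoblots that its tumor-derived lines, made before p53 was restored, lacked RB protein. It describes no RB immunoblot after restoration. These levels are of RNA, and whether the rise reaches the protein was not measured here. Without restoration Rb1 was at 7.36 to 17.3 TPM in all 12 libraries, and with restoration at 21.1 to 68.8 TPM, so the libraries did not overlap. In bulk samples fewer cells with an RNA and less RNA per cell cannot be told apart. Rbl1, the member that the model leaves intact, stayed between 23.7 and 45.4 TPM in all 24 libraries and passed the test in no comparison. Rbl2, targeted like Rb1, was the lowest of the 3 in every library, at 4.49 to 20.6 TPM, and was lower in Type D than in Type V lines. Among tested genes the median rank of Rb1 was at the 47.7 percentile, of Rbl1 at the 59.2 percentile and of Rbl2 at the 35.5 percentile.

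**Figure D1:**
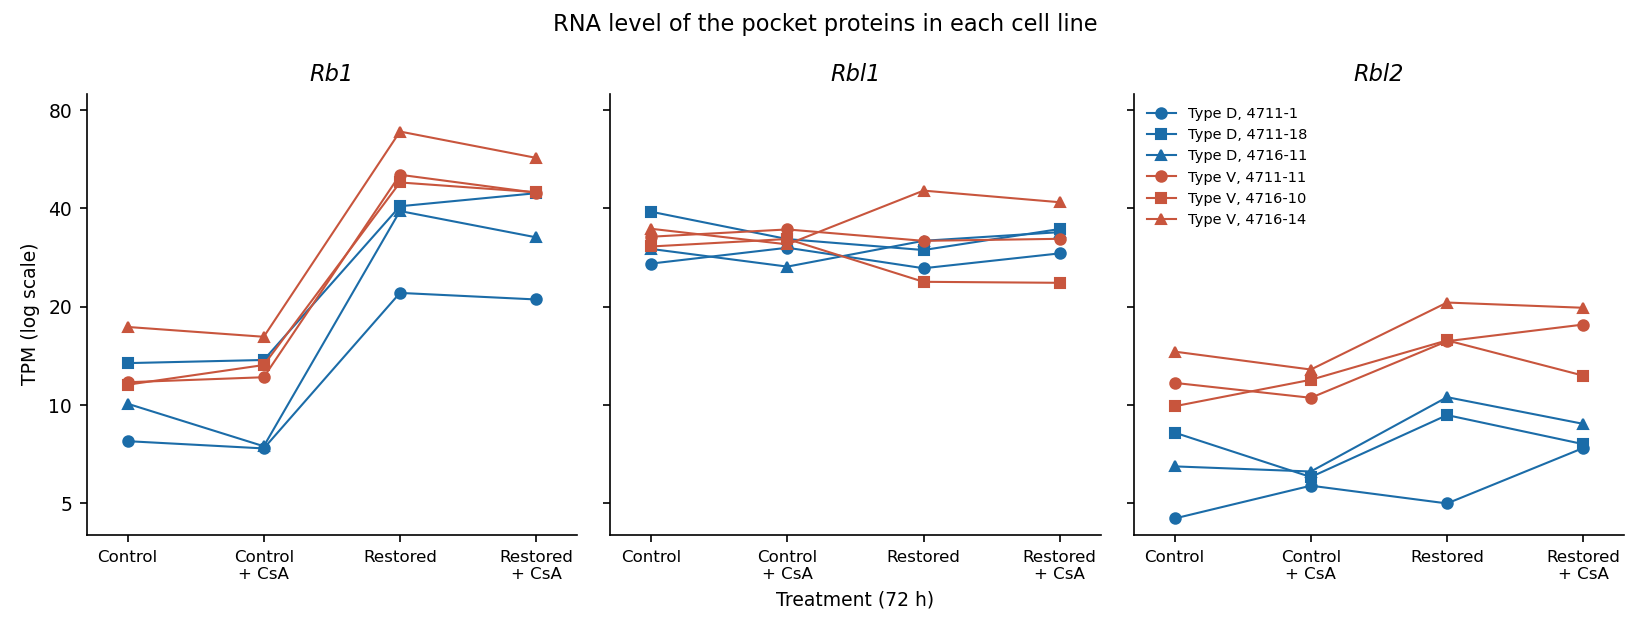
TPM on a log axis of Rb1, Rbl1 and Rbl2 in each of the 24 libraries, by treatment, with 1 line per cell line (blue, Type D; red, Type V). Rb1 steps up in all 6 cell lines from 7.36 to 17.3 TPM to 21.1 to 68.8 TPM with restoration, Rbl1 stays between 23.7 and 45.4 TPM, and the Type V curves of Rbl2 lie above the Type D curves.

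Rb1 encodes RB, the founding pocket protein and a tumor suppressor. In the Type D Control libraries Rb1 was at 7.75 TPM in 4711-1, 13.4 TPM in 4711-18 and 10.1 TPM in 4716-11. After restoration the same lines had 22.1, 40.6 and 39.3 TPM. All 3 restored libraries lay above all 3 Control libraries, and line 4711-1 was the lowest in both groups. In Type V Control libraries Rb1 was at 11.7 TPM in 4711-11, 11.5 TPM in 4716-10 and 17.3 TPM in 4716-14. With restoration these lines had 50.7, 48.1 and 68.8 TPM. Here too the groups did not overlap, and 4716-14 was the highest library of both.

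Within lines, the ratio of Restored to Control TPM for Rb1 was 2.85 to 3.89 in Type D, and 3.97 to 4.32 in Type V. Tests used log2(TPM + 1), a scale that understates changes of low genes. By limma, with p-values adjusted (Benjamini-Hochberg) over all 14104 genes, Rb1 rose by 1.60 log2 in Type D (SE 0.297, adjusted p = 0.00113, higher in 3 of 3 lines). In Type V it rose by 1.97 log2 (SE 0.297, limma adjusted p = 0.000204, higher in 3 of 3 lines). A gene is called here at an adjusted p under 0.05 with a difference of at least 1 log2. By that rule 1 of 3 pocket protein genes was called higher in each type and 0 of 3 lower, where 4.49% of all tested genes were called higher in Type D and 3.39% in Type V, and 2.44% and 1.9% lower. In each type 1 of the 3 genes had an unadjusted p under 0.05. Over all 6 lines Rb1 rose by 1.78 log2 (95% interval 1.34 to 2.22, limma adjusted p = 3.64e-06, higher in 6 of 6 lines), where 4.62% of genes were called higher (652 higher and 313 lower, or 521 and 391 under quantile normalization). Rb1 was also among the 2.59% of tested genes whose 12 restored libraries all lay above all 12 unrestored ones. With the cell line as a block, limma called 995 genes higher and 587 lower in Type D, against 633 and 344 without it, and 809 and 413 in Type V, against 478 and 268. The calls on the 3 pocket protein genes were the same with the block. Under quantile normalization the split in Type D was 499 higher and 421 lower.

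The rise of Rb1 was also measured under CsA. In Type D, Control + CsA libraries had 7.36, 13.7 and 7.48 TPM of Rb1 (lines 4711-1, 4711-18 and 4716-11) and Restored + CsA libraries 21.1, 44.6 and 32.6 TPM. In Type V the values were 12.2, 13.3 and 16.2 TPM (4711-11, 4716-10 and 4716-14) with CsA alone and 44.7, 44.9 and 57.1 TPM with restoration under CsA. Neither pair of groups overlapped. Rb1 rose by 1.67 log2 in Type D (SE 0.297, limma adjusted p = 0.000901, 3 of 3 lines) and by 1.75 log2 in Type V (SE 0.297, limma adjusted p = 0.000636, 3 of 3 lines). Again 1 of 3 genes was called higher in each type, where 3.53% and 2.84% of all tested genes were. Over all 6 lines under CsA the rise of Rb1 was 1.71 log2 (95% interval 1.27 to 2.15, limma adjusted p = 7.22e-06, 6 of 6 lines), where 3.95% of genes were called higher. The Type D call was lost when only the groups compared entered the fit (1.67 log2, limma adjusted p = 0.0539).

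The rise of Rb1 did not pass the test of a difference between types. Type D minus Type V was -0.38 log2 (95% interval -1.26 to 0.50, limma adjusted p = 1), and -0.07 log2 under CsA (95% interval -0.95 to 0.80, limma adjusted p = 1). Of all genes, 4 were called in the first of these comparisons (0.0284%) and 2 in the second (0.0142%), while 540 and 430 genes had an unadjusted p under 0.05, none of them a pocket protein gene. With the cell line as a block the Rb1 difference was -0.38 log2 with a narrower 95% interval of -0.74 to -0.01 (limma, unadjusted p = 0.0442, adjusted p = 0.209), and -0.07 log2 under CsA (limma adjusted p = 0.833). The within-line ratios of the types did not overlap without CsA (2.85 to 3.89 against 3.97 to 4.32) and did under CsA (2.86 to 4.36 against 3.38 to 3.67). The share of all tested genes whose ratios separated in this way is not given here, so the separation is not set apart from chance.

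Ordered by group mean, Rb1 was highest in Restored Type V (55.9 ± 11.3 TPM, SD, n = 3), then Restored + CsA Type V (48.9 ± 7.14), Restored Type D (34.0 ± 10.4) and Restored + CsA Type D (32.7 ± 11.8). The unrestored groups followed at 13.9 ± 2.08 TPM (Control + CsA, Type V), 13.5 ± 3.29 (Control, Type V), 10.4 ± 2.86 (Control, Type D) and 9.53 ± 3.65 TPM (Control + CsA, Type D). Neighbours in this order overlapped except at 2 steps, between the Type V and the Type D restored groups and between the restored and the unrestored groups. Between types the Rb1 difference did not pass the test in any treatment. It was -0.35 log2 in Control (95% interval -0.98 to 0.27, limma adjusted p = 0.472) and -0.73 log2 in Restored libraries (95% interval -1.35 to -0.11, limma adjusted p = 0.106), although the Restored libraries of the types did not overlap (22.1 to 40.6 against 48.1 to 68.8 TPM). In 16.1% of all tested genes, all 3 Type D lines lay below all 3 Type V lines in Restored libraries.

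Rbl1 encodes p107, which is not targeted in this model. In Type D lines it was at 27.1, 39.1 and 30.1 TPM in Control and at 26.2, 29.8 and 31.8 TPM in Restored libraries (lines 4711-1, 4711-18 and 4716-11). In Type V lines it was at 32.8, 30.6 and 34.7 TPM in Control and at 31.8, 23.8 and 45.4 TPM in Restored libraries (4711-11, 4716-10 and 4716-14). The groups overlapped in both types, and the Restored Type V lines spread on either side of their controls, with 4716-10 the lowest and 4716-14 the highest. The difference with restoration was -0.11 log2 in Type D (95% interval -0.55 to 0.32, limma adjusted p = 0.826) and -0.003 log2 in Type V (95% interval -0.44 to 0.43, limma adjusted p = 1). Rbl1 was higher in 1 of 3 lines of each type. With CsA alone Rbl1 was at 26.5 to 34.5 TPM over the 6 lines, and with CsA and restoration at 23.7 to 41.8 TPM.

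The 8 group means of Rbl1 ran only from 29.3 ± 2.84 TPM (Restored, Type D) to 33.7 ± 10.9 TPM (Restored, Type V; SD, n = 3), and every neighbour in that order overlapped the next. Type D minus Type V was -0.04 log2 in Control (95% interval -0.48 to 0.40, limma adjusted p = 0.93), and its sign turned under quantile normalization (0.070) and median-ratio scaling (0.074). The interval for Control and those for restoration in each type all lie within 1 log2 of 0.

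Rbl2 encodes p130, the pocket protein that prevails in resting cells. In Type D Control libraries it was at 4.49, 8.23 and 6.49 TPM (4711-1, 4711-18 and 4716-11) and in Type V Control libraries at 11.7, 9.91 and 14.6 TPM (4711-11, 4716-10 and 4716-14). The types did not overlap, and 4711-1 was the lowest library of all 24. The difference, Type D minus Type V, was -0.84 log2 (SE 0.248, limma adjusted p = 0.0312), which passes the adjusted p and not the 1 log2 threshold. In Control libraries 0 of 3 pocket protein genes were called, against 8.83% of all tested genes (limma; 1 of 3 had an unadjusted p under 0.05), and 7.21% of genes were lower by the adjusted p alone. In Restored libraries Rbl2 was at 4.99, 9.31 and 10.6 TPM in Type D and at 15.7, 15.8 and 20.6 TPM in Type V, again without overlap. There the difference was -1.03 log2 (SE 0.248, limma adjusted p = 0.00907), so 1 of 3 genes was called lower and 0 higher, where 4.99% of all tested genes were called lower and 4.45% higher (9.44% in all, and 8.04% lower by the adjusted p alone). This call was lost under quantile normalization, under median-ratio scaling, when only the compared groups were fitted (limma adjusted p = 0.147), without 4711-1 (-0.74 log2) and without 4716-14 (-0.90 log2).

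With CsA the type difference of Rbl2 had the same sign. In Control + CsA libraries Rbl2 was at 5.66 to 6.26 TPM in Type D and at 10.5 to 12.8 TPM in Type V (-0.87 log2, limma adjusted p = 0.023, which 8.44% of genes passed as lower; 0 of 3 genes called, 9.88% of all). In Restored + CsA libraries it was at 7.39 to 8.76 TPM against 12.3 to 19.9 TPM (-0.96 log2, limma adjusted p = 0.0155, which 5.88% of genes passed as lower; 0 of 3 genes called, 7.82% of all). All 3 Type D lines lay below all 3 Type V lines in each of the 4 treatments, as did 19.5% of all tested genes in Control, 20% in Control + CsA, 16.1% in Restored and 15.5% in Restored + CsA libraries. The 4 comparisons use the same 6 lines and are not independent. Summed epithelial markers also differed between the types, at 4425 to 11816 TPM in Type D and 490 to 1577 TPM in Type V. Krt8 and Krt18 did not overlap between types, while Cdh1 and Epcam did, Epcam at no more than 4.57 and 2.19 TPM. Summed mesenchymal markers were at 2911 to 5637 TPM in Type D and 4775 to 6246 TPM in Type V. The part of these markers in the Rbl2 difference was not tested. Rpgrip1l, the next protein-coding gene beyond Aktip, was lower in Type D too (-1.36 log2 in Control, limma adjusted p = 0.0387), whereas Aktip itself was at 26.8 ± 4.92 TPM in Type D and 30.9 ± 11.3 TPM in Type V Control libraries (limma adjusted p = 0.831).

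With restoration Rbl2 was higher in 6 of 6 lines without passing the test. The ratio of Restored to Control was 1.11 to 1.63 in Type D lines and 1.34 to 1.59 in Type V lines. The difference was 0.30 log2 in Type D (95% interval -0.21 to 0.82, limma adjusted p = 0.508) and 0.50 log2 in Type V (95% interval -0.02 to 1.02, limma adjusted p = 0.254). Over the 6 lines it was 0.40 log2 (limma adjusted p = 0.111). With the cell line as a block the adjusted p of limma was 0.146 in Type D, 0.0246 in Type V and 0.00828 over the 6 lines, with the same estimates. Of all tested genes, 23.8% were higher in Restored than in Control libraries in all 6 lines. Group means of Rbl2 ran from 5.98 ± 0.300 TPM (Control + CsA, Type D) to 17.4 ± 2.81 TPM (Restored, Type V; SD, n = 3), with the 4 Type V groups above the 4 Type D groups, and each group overlapped its neighbour in that order.

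**Figure D2:**
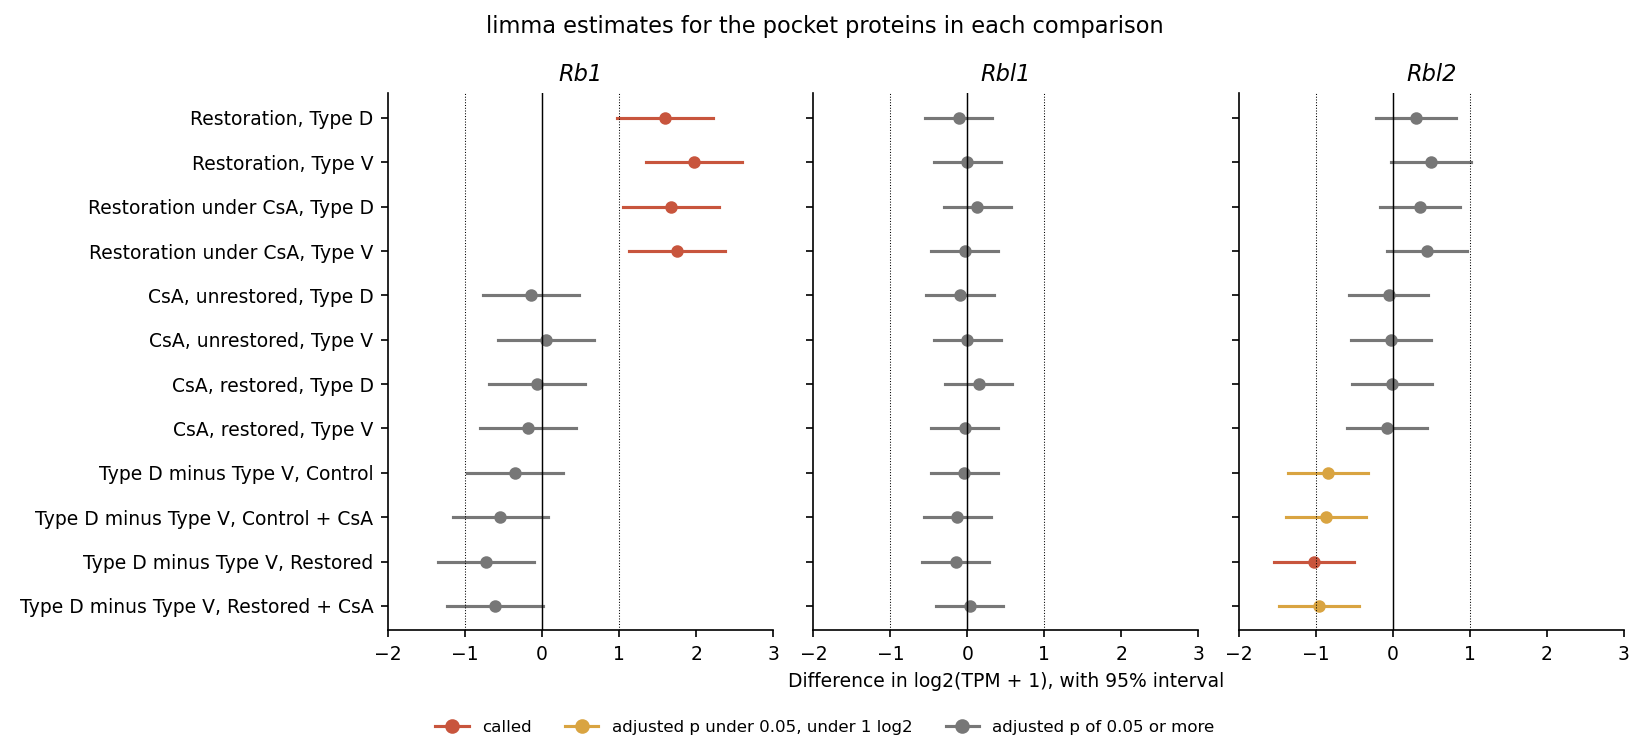
Differences in log2(TPM + 1) estimated by limma for Rb1, Rbl1 and Rbl2 (x axis) in 12 comparisons (y axis), with 95% intervals; dotted lines mark a difference of 1 log2 either way and colors the outcome of the test. Rb1 is called in the 4 restoration comparisons, Rbl2 only between types in Restored libraries, and Rbl1 in none.

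CsA was added to ask whether cyclophilin inhibition alters the response to p53. None of the 3 genes passed the test for CsA in either type, with or without restoration (limma adjusted p = 1 for all, 0 of 3 genes with an unadjusted p under 0.05). Among all genes 0% were called in 3 of these 4 comparisons and 0.0142% in restored Type D libraries, and 54 to 229 genes had an unadjusted p under 0.05. For Rb1 in restored libraries the CsA difference was -0.06 log2 in Type D (95% interval -0.69 to 0.56) and -0.18 log2 in Type V (95% interval -0.80 to 0.44). For Rbl2 it was -0.01 log2 in Type D (95% interval -0.53 to 0.51) and -0.08 log2 in Type V (95% interval -0.59 to 0.44). For Rbl1 it was 0.15 log2 in Type D (95% interval -0.29 to 0.58) and -0.04 log2 in Type V (95% interval -0.47 to 0.40).

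The order of the 3 genes by TPM turned with restoration. The floxed exons of Rb1 and Rbl2 are not known here, so order and shares may differ from those of transcript numbers. Rbl1 stood above Rb1 and Rb1 above Rbl2 in all 12 libraries without restoration. With restoration Rb1 stood first in all 6 Type V libraries and in 3 of 6 Type D libraries, and Rbl1 stayed first in the other 3, which are both libraries of 4711-1 and the Restored + CsA library of 4716-11. Rb1 made up 17.0% to 26.9% of the summed TPM of the 3 genes without restoration and 36.6% to 55.5% with it. The share of Rbl1 was 51.7% to 69.9% without restoration and 27.2% to 50.6% with it. The share of Rbl2 was 11.4% to 15.5% in unrestored Type D and 18.4% to 21.9% in unrestored Type V libraries. Summed over the 3 genes, the level was 53.6 TPM on average in Control and 89.2 TPM in Restored libraries, higher in 6 of 6 lines.

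**Figure D3:**
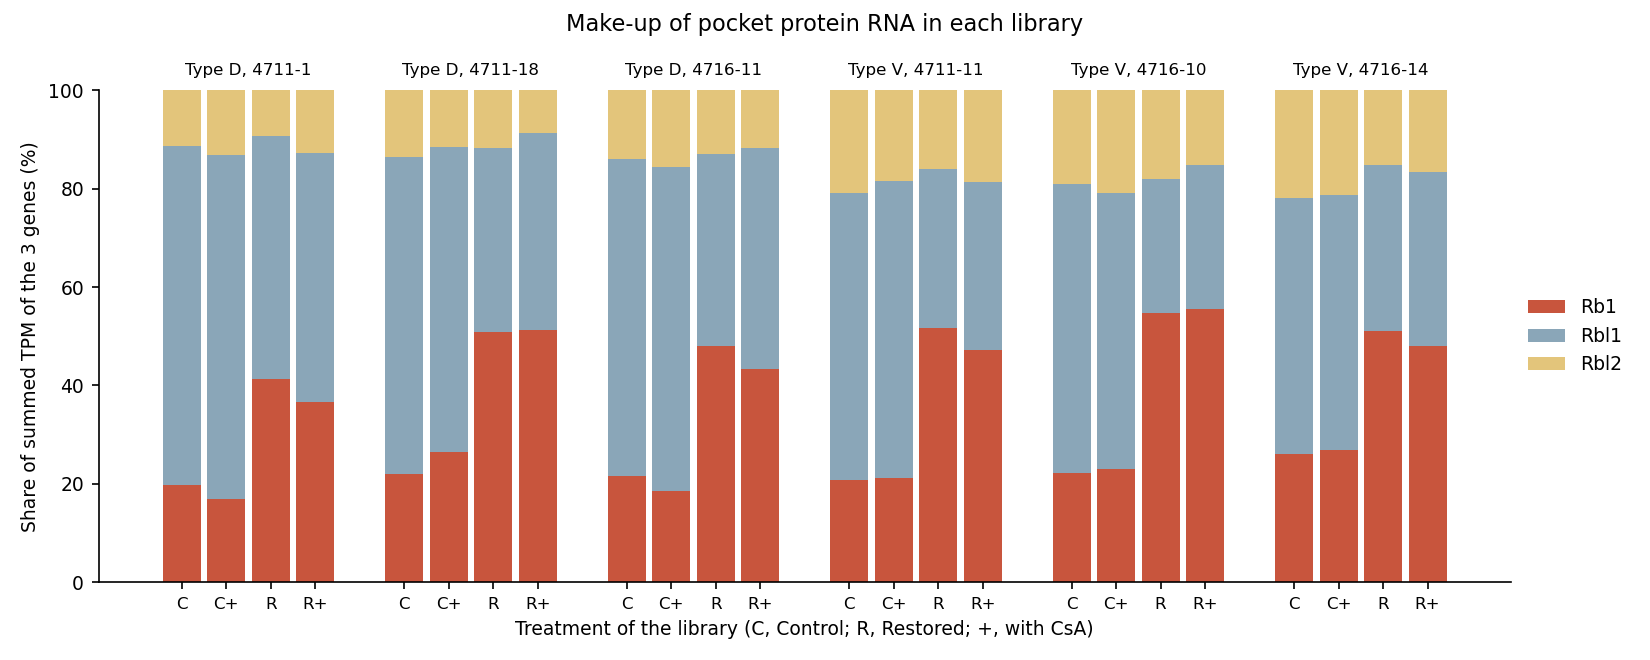
Share in percent of the summed TPM of Rb1, Rbl1 and Rbl2 that each gene holds (y axis), 1 bar per library, grouped by cell line and ordered by treatment (x axis). The Rb1 share is 17.0% to 26.9% in the unrestored libraries and 36.6% to 55.5% in the restored ones.

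Ratios were taken within each library as differences of log2(TPM + 1). The log2 ratio of Rb1 to Rbl1 went from -1.39 in Control to 0.45 in Restored libraries, a mean change of 1.84 ± 0.324 (SD, n = 6 lines; exact two-sided sign-flip permutation test over lines, p = 0.03125, adjusted p = 0.0536). The ratio of Rb1 to Rbl2 changed by 1.38 ± 0.142 (exact sign-flip permutation p = 0.03125, adjusted p = 0.0536, higher in 6 of 6 lines). That of Rbl1 to Rbl2 changed by -0.46 ± 0.313 (exact sign-flip permutation p = 0.03125, adjusted p = 0.0536, lower in 6 of 6 lines). For 6 lines 0.03125 is the smallest p this test can give, and adjustment was over 12 tests, so none passes 0.05 after adjustment. In restored libraries the log2 ratio of Rb1 to Rbl1 was lower with CsA in 6 of 6 lines, by -0.35 to -0.08 (mean -0.18; exact sign-flip permutation p = 0.03125, adjusted p = 0.0536). In unrestored libraries the ratio was lower with CsA in 3 of 6 lines (mean 0.002, exact permutation p = 1).

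Genes whose pattern was most like that of each pocket protein gene were ranked by Pearson's r of log2(TPM + 1) over the 24 libraries, which share 6 lines and 4 treatments. For Rb1 they were Exoc4 (r = 0.988), Rap2a (0.961), Tctn1 (0.957), Pdrg1 (0.956) and Clip2 (0.956). With the mean of each line removed they were Exoc4 (0.993), Rev1 (0.993), Ei24 (0.991), C130083M11Rik (0.991) and Prrg4 (0.991), and r of Rb1 with Cdkn1a was 0.991 and with Trp53 0.988. For Rbl1 the nearest were Pola1 (0.845), Mtmr4, Sdha, Ercc6l2 and Jpt2 (0.804), and with line means removed Dnmt1 (0.894), Nup155, Pola1, C2cd3 and Brca2 (0.863). Dnmt1, Pola1 and Brca2 act in DNA replication or its repair. For Rbl2 they were Atg4a (0.941), Gpr162, Ttc19 and Zc2hc1a (0.934), and with line means removed Amt (0.903), Nit1, Dclre1a, Ddb2 and Iqsec2 (0.888). Between the members, r with line means removed was 0.821 for Rb1 and Rbl2, 0.247 for Rbl1 and Rbl2 and 0.020 for Rb1 and Rbl1.

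Of the genes beside Rb1, Lpar6 and Rcbtb2 did not pass the test with restoration. Lpar6 was at 10.5 ± 6.81 TPM in Control and 8.61 ± 3.02 TPM in Restored Type D libraries, and at 11.5 ± 0.662 and 22.1 ± 13.3 TPM in Type V (SD, n = 3; limma adjusted p = 0.941 and 0.466). Rcbtb2 was at 14.2 ± 7.11 and 13.4 ± 4.73 TPM in Type D (limma adjusted p = 1). Itm2b, which lies 36404 bases beyond the Rb1 start, rose by 1.80 log2 in Type V (limma adjusted p = 0.00959) and differed by 1.11 log2 in Type D (limma adjusted p = 0.101). Samhd1, beside Rbl1, was lower with restoration, by -0.62 log2 in Type D and -0.59 log2 in Type V (limma adjusted p = 0.0126 and 0.02), under the 1 log2 threshold.

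Among the factors that pocket proteins bind, the 10 E2F and DP genes held 0 calls with restoration in Type D (limma) and 1 lower in Type V. That gene was E2f8, an atypical repressor E2F, at 36.3 ± 4.31 TPM in Control and 13.1 ± 5.66 TPM in Restored Type V libraries (-1.50 log2, limma adjusted p = 0.02; -1.05 log2 and adjusted p = 0.0975 in Type D). Without any 1 of the 3 Type V lines E2f8 was no longer called. E2f4, the main partner of p107 and p130, was at 151 ± 22.8 TPM in Type D and 186 ± 42.7 TPM in Type V Control libraries, above every other E2F gene. E2f1, a partner of RB, was at 41.4 ± 2.62 TPM in Control and 56.4 ± 0.674 TPM in Restored Type D libraries (limma adjusted p = 0.336). Tfdp1, the DP subunit that pairs with E2Fs, was at 295 ± 94.3 TPM in Type D Control libraries (SD, n = 3). The median difference of the 10 genes was -0.22 log2 in Type D and -0.24 log2 in Type V, against 0.07 and 0.05 log2 for all tested genes.

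Of 8 genes of the MuvB core and its partners, 2 were called lower in Type D and 3 in Type V. B-Myb's gene Mybl2 fell from 48.5 ± 12.2 to 8.01 ± 2.13 TPM in Type D (-2.46 log2, limma adjusted p = 8.85e-07). In Type V lines it fell from 41.8 ± 6.86 to 11.5 ± 2.48 TPM (-1.77 log2, limma adjusted p = 5.81e-05). Foxm1, which joins B-Myb and MuvB on mitotic genes, fell too (-2.66 log2 in Type D and -1.94 log2 in Type V, limma adjusted p = 2.38e-05 and 0.000868). The third gene in Type V was Lin9, a MuvB core subunit (-1.16 log2, limma adjusted p = 0.00184), named here after its value was seen. Dyrk1a, the kinase that favors DREAM assembly, did not pass (0.32 log2 in Type D and 0.0003 log2 in Type V).

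Of the 10 genes of kinases and cyclins that act on pocket proteins, 2 were called lower with restoration in each type. Ccna2 (cyclin A2) fell in both types (-3.51 log2 in Type D and -2.51 log2 in Type V, limma adjusted p = 3.8e-07 and 2.79e-05), and so did Cdk1 (-2.30 and -1.54 log2, limma adjusted p = 9.76e-06 and 0.000944). Between types, 2 of the 10 genes were called higher and 0 lower in Type D Control libraries, both of them D-type cyclin genes. There 4.42% of all tested genes were called higher and 4.41% lower. Ccnd1 was at 668 ± 177 TPM in Type D and 275 ± 25.9 TPM in Type V Control libraries (1.24 log2, limma adjusted p = 0.00715) and Ccnd2 at 264 ± 109.0 and 84.4 ± 28.0 TPM (1.58 log2, limma adjusted p = 0.0092), while Ccnd3 did not pass (-0.17 log2, limma adjusted p = 0.553). In Restored libraries neither Ccnd1 nor Ccnd2 was called between types by limma. There 1 of the 10 genes was called lower in Type D and 0 higher, with differences from -1.28 to 1.13 log2. Of all tested genes, 4.99% were called lower and 4.45% higher. Under CsA 2 of the 10 genes were called higher and 0 lower in Type D, both in Control + CsA and in Restored + CsA libraries. There 9.88% and 7.82% of all tested genes were called in either direction. Of the CDK inhibitors 6 of 7 were tested, and Cdkn1c, at 1.29 TPM at most, was not. Cdkn1a (p21) rose by 4.17 log2 in Type D and by 4.80 log2 in Type V (limma adjusted p = 3.46e-08 and 4.9e-09), and in Control libraries Type D exceeded Type V (1.07 log2, limma adjusted p = 0.0245). Cdkn2d (p19Ink4d) was called lower in Type D (-1.27 log2, limma adjusted p = 0.00112) and Cdkn2a in Type V (-1.02 log2, limma adjusted p = 0.00568), the latter not without 4716-10, without 4716-14 or under quantile normalization. None of the 3 PP1 catalytic subunit genes, whose phosphatase removes phosphate from RB, was called in either type by limma (0 of 3 with restoration, medians -0.22 and -0.55 log2).

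Of 8 chromatin partners of RB, 1 was called lower in each type, the histone methyltransferase gene Suv39h1 (-1.39 log2 in Type D and -1.21 log2 in Type V, limma adjusted p = 0.000142 and 0.000756). The 20 G1/S targets of E2F held 1 call in Type D, Tk1 (thymidine kinase, -1.15 log2, limma adjusted p = 0.000432, not called without 4711-18), and 0 calls in Type V. By the adjusted p without the 1 log2 threshold, 4 of the 20 genes were lower and 0 higher in each type. In Type V 4.57% of all tested genes were lower by that rule. The shares lower in Type D and higher in either type are not given here. Those counts are therefore not set against all genes. The medians of the 20 genes were -0.31 and -0.36 log2. The 20 G2/M targets of DREAM were all called lower in both types, with medians of -3.17 log2 in Type D and -2.09 log2 in Type V and ranges of -3.79 to -1.74 and -2.61 to -1.73 log2. Plk1 fell from 163 ± 13.7 to 12.7 ± 7.77 TPM in Type D, and Bub1b from 139 ± 11.9 to 22.0 ± 2.11 TPM in Type V (SD, n = 3; limma adjusted p = 3.84e-06 and 4.62e-06). These counts stand beside 2.44% of all tested genes called lower in Type D and 1.9% in Type V. Over the 8 lists, 3 genes were called higher and 0 lower in Type D Control libraries against those of Type V (limma), where 4.42% and 4.41% of all tested genes were. Of these 3 calls (Ccnd1, Ccnd2 and Cdkn1a), 0 were made without 4711-1, 1 without 4716-11, and 1 when only the compared groups were fitted.

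**Figure D4:**
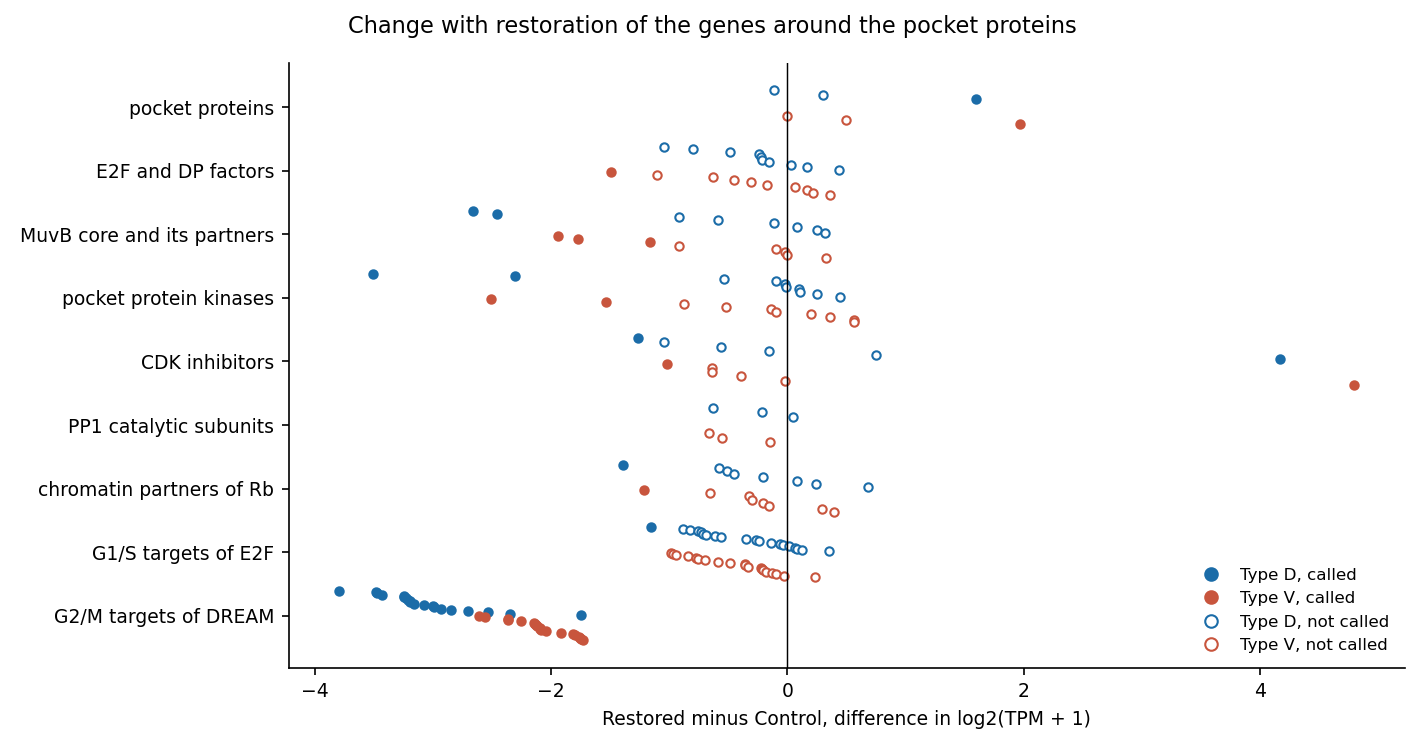
Difference in log2(TPM + 1) between Restored and Control libraries (x axis) for each gene of the pocket protein list and the 8 lists around it (y axis), in Type D (blue) and Type V (red), with filled points for called genes. All 20 G2/M targets of DREAM lie below -1.7, Cdkn1a lies above 4 in both types, and Rb1 is the only called pocket protein gene.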

How the data were processed

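RNA-seq of 24 libraries (6 cell lines, 4 treatments at 72 h) was analysed. The authors deposited TPM values, which sum to 1000000 per library. Their methods give a stranded mRNA kit, single-end reads, kallisto or HISAT2, and name both mm10 and GRCm39, which leaves the pipeline and build behind the table uncertain. TPM keeps no counts, so depth is unknown, and a rise of abundant genes lowers all others.

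Groups, types and treatments came from the labels. Values were taken as log2(TPM + 1), which understates changes of low genes. Genes at TPM of at least 1 in at least 3 libraries (14104) were fitted with limma 3.58.1 in R 4.3.3, with 1 coefficient for each of 8 groups and a trended variance. Adjustment (Benjamini-Hochberg) was over all tested genes within each of 16 comparisons, and all tests were two-sided. Ratios were tested by exact sign-flip permutation over lines in Python 3.11.15. Scripts were tested on simulated data.

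The cell line pairs the libraries, as the labels state. After removing group means, libraries of 1 line correlated at r of 0.599 to 0.929 (36 pairs) and those of different lines of a type at -0.675 to 0.0438 (72 pairs). Alternatives were a pseudocount of 0.1, no filter, TPM of at least 5, median-ratio scaling, quantile normalization, a block for the cell line, only the compared groups, and leaving out each line. The members and gene lists were chosen with earlier results of these data known, and Rb1, E2f2, E2f3, Ccna2, Ccnb1 and Ccnb2 also stand in gene modules that the study chose on these samples. Genes named from the lists were, in each main comparison, up to 2 called genes with the largest rise and up to 2 with the largest fall whose direction was shared by every line. Levels of E2F and CDK inhibitor genes, the genes beside each member and the 5 most correlated genes could be named too. Results for some genes are not reported here. Promoter letters came from RefSeq (GRCm38.p6) and coordinates from GENCODE M21.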

Additional observations from a re-analysis of the deposited data

Results flagged for a closer look

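In some of the 85 tested list genes every Type D line moved one way with restoration and every Type V line the other way. The share of all tested genes that moved this way is not given here, so these genes are not set apart from chance. Cdkn2b (p15Ink4b) differed by 1.14 log2 between types (Type D 0.76, Type V -0.39), and by 0.91 log2 under CsA (0.58 and -0.34). Hdac2 differed by 0.24 log2 (0.08 and -0.15). Under CsA, Mcm2 differed by 0.46 log2 (0.28 and -0.18) and Cdt1 by 0.52 log2 (0.22 and -0.30). None of these differences passed the test of the difference itself (limma adjusted p = 1 for each). Neither Rb1, Rbl1 nor Rbl2 moved in this way.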

How the results depend on the processing

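Over 78 alternative values the restoration difference of Rb1 lay between 1.45 and 2.04 log2 and was called in 77, the exception being under CsA in Type D with only the compared groups fitted (1.67, limma adjusted p = 0.0539). Filters, the block and fits of only the compared groups cannot move the estimate, nor can dropping a line of a type not compared. For these settings only the p could change. The Rbl2 difference between types in Restored libraries was no longer called under quantile normalization (-0.93), median-ratio scaling (-0.99), with only the compared groups fitted (-1.03), without 4711-1 (-0.74) or without 4716-14 (-0.90). It was called without each of the other lines, and over the 6 fits without 1 line it ranged over -1.21 to -0.74. In Restored + CsA libraries it was called with a pseudocount of 0.1 (-1.04), and in Control libraries it ranged over -1.01 to -0.64 without 1 line and was called without 4711-18. The cause was not tested.

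Differences of Rbl1 near 0 changed sign. Type D minus Type V in Control gave 0.070 under quantile normalization and 0.074 under median-ratio scaling. For Type D minus Type V the ranges without 1 line were -0.19 to 0.069 in Control, -0.37 to 0.081 in Restored and -0.17 to 0.22 in Restored + CsA libraries. For restoration they were -0.21 to 0.017 in Type D, -0.19 to 0.17 in Type V, -0.26 to 0.16 under CsA in Type V, -0.15 to 0.027 over the 6 lines and -0.067 to 0.15 under CsA over the 6 lines. For the difference of restoration between types they were -0.28 to 0.079, and -0.034 to 0.39 under CsA. Restoration under CsA gave -0.029 in Type D under quantile normalization, and over the 6 lines -0.047 under quantile normalization and -0.021 under median-ratio scaling. CsA without restoration in Type V gave 0.011 under quantile normalization and 0.0089 under median-ratio scaling, with a range of -0.041 to 0.073 without 1 line, and CsA with restoration in Type V gave 0.0033 under quantile normalization, with a range of -0.063 to 0.0052.

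For Rb1 the ranges that crossed 0 without 1 line were -0.16 to 0.033 (CsA with restoration, Type D), -0.024 to 0.12 (CsA without restoration, Type V) and -0.23 to 0.062 (restoration under CsA between types). For Rbl2 they were -0.22 to 0.12 and -0.26 to 0.12 (CsA without and with restoration, Type D; 0.014 in the latter under quantile normalization), -0.15 to 0.054 and -0.19 to 0.054 (the same in Type V) and -0.29 to 0.035 (restoration under CsA between types). Ratios without 1 line were 1.75 to 1.92 for Rb1 to Rbl1, 1.34 to 1.41 for Rb1 to Rbl2 and -0.53 to -0.36 for Rbl1 to Rbl2, each at the smallest exact permutation p that 5 lines allow (0.0625).

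With the replicate block of cell line, the count of called genes was 1582 against 977 for restoration in Type D and 1222 against 746 in Type V, and the Rb1 difference was 1.60 (limma adjusted p = 7.61e-08) and 1.97 (limma adjusted p = 1.08e-08). The block moved Rbl2 below an adjusted p of 0.05 with restoration in Type V (0.0246), under CsA in Type V (0.0462) and over the 6 lines (0.00828, and 0.00966 under CsA), and changed no other outcome of the 3 genes. Type contrasts cannot take the block. With only the compared groups fitted, 291 genes were called for restoration in Type V, 631 between types in Control against 1246, and 490 in Restored against 1331. Without 1 line these counts ranged over 604 to 1074 for restoration in Type D, 530 to 752 in Type V, and 800 to 1627 and 766 to 1785 between types in Control and Restored libraries. Over the 8 lists, genes called higher in Type D Control libraries were 1 with only the compared groups fitted, and 0 to 3 without 1 line. The median of all genes between types in Control was -0.12 log2, -0.029 under quantile normalization and -0.017 under median-ratio scaling. TPM keeps no read counts, so the depth behind low values such as those of Rbl2 is unknown.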
